A study of Mus musculus with 16 samples.

Results

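The 7 genes described here are a long non-coding RNA, its neighbours on mouse chromosome 4 and the core of the reelin pathway, among 53801 genes counted. Lrp8os2 entered as the transcript with the largest rise in Trrap-deleted forebrain, so its rise is a description and was not tested. Lrp8, Magoh and 0610037L13Rik entered as its neighbours, and Reln, Vldlr and Dab1 as the genes that carry reelin signalling together with Lrp8. RNA came from cortical and striatal tissue of 9 mice aged 10 days, of a C57BL6/J-129sv background, in 16 libraries. Controls carried 1 floxed and 1 wild-type Trrap allele with the Camk2-Cre transgene (Trrap Fl/+; 4 cortex and 4 striatum libraries). Mutants, called Trrap-FBΔ, carried floxed alleles on both chromosomes with the same transgene (Trrap Fl/Fl; 4 libraries per tissue from the same 4 mice). Trrap encodes a large scaffold of histone acetyltransferase complexes. All mice therefore carried Cre, and the controls were heterozygous for the floxed allele. The authors describe the deletion as one of pyramidal neurons of the cortex and striatum. Which cells of the dissected tissue lost Trrap and which kept it cannot be read from these counts. These are bulk samples, in which fewer cells of a type and less RNA per cell cannot be told apart.

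Reelin is a large secreted glycoprotein that guides the placement of neurons in the layered brain and later acts at synapses. It is released by Cajal-Retzius cells at the brain surface and, after birth, by interneurons. It binds the lipoprotein receptors Vldlr and Lrp8, the latter also called ApoER2, and clusters them. The adaptor Dab1 sits on the tails of both receptors, is phosphorylated by Src-family kinases and relays the signal to the cytoskeleton before it is ubiquitinated and degraded. Antisense transcripts such as Lrp8os2 are read from the strand opposite a coding gene, and the function of this one is not given in the sources used here.

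In the GRCm38 annotation, Lrp8 (ENSMUSG00000028613) spans chr4:107802261-107876840 on the plus strand. Lrp8os2 (ENSMUSG00000073779) lies inside it on the minus strand at chr4:107806033-107823022, in 4 exon blocks of 3221 bases together. All 4 blocks fall in introns of Lrp8, with 0 exonic bases in common, and reads were counted by strand. The 5′ end of Lrp8os2 lies 139 bases from the start of a shorter annotated Lrp8 transcript that runs the other way, and 20761 bases from the first annotated Lrp8 start. Magoh, at chr4:107879755-107887424, and 0610037L13Rik, listed as Czib by RefSeq, at chr4:107889813-107899384, follow on the plus strand. Dab1 is on the same chromosome at chr4:103619359-104744844, Reln is at chr5:21884454-22344702 and Vldlr at chr19:27216484-27254231.

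The RefSeq promoter windows (GRCm38.p6; 250 bases before to 50 after a start) of the genes whose levels separated the genotypes in both tissues are shown 5′ to 3′ on the strand of the gene. The Lrp8os2 window at chr4:107822973-107823272 shares 238 bases with that of the shorter Lrp8 transcript. In it the capitals on the right mark the first 50 transcribed bases of Lrp8os2, and those on the left the first 50 bases of the Lrp8 transcript, read from the other strand. In the window of the first of the 3 Lrp8 starts listed by RefSeq, chr4:107802635-107802934, the capitals mark the first 50 transcribed bases. In those of Vldlr (chr19:27216770-27217069) and 0610037L13Rik (chr4:107889649-107889948) they mark a GC box, GGGCGG on either strand, and a CCAAT motif on either strand.
Lrp8os2: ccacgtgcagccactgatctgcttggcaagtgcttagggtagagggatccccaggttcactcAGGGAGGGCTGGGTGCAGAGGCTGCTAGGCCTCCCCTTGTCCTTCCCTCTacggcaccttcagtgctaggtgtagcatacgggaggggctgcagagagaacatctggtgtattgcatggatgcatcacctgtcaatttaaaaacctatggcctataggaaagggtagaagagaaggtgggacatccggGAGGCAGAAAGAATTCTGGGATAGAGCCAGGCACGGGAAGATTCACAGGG
Lrp8: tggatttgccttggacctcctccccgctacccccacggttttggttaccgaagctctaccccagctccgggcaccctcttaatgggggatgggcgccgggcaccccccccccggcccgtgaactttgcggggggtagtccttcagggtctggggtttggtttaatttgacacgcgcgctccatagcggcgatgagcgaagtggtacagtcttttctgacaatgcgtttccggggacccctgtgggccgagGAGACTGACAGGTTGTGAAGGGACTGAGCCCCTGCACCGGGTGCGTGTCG
Vldlr: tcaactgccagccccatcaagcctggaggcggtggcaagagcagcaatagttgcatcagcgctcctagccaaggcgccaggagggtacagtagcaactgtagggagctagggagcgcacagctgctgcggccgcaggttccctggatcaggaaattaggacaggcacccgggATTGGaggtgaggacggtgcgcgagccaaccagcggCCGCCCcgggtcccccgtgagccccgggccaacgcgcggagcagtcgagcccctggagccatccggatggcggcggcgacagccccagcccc
0610037L13Rik: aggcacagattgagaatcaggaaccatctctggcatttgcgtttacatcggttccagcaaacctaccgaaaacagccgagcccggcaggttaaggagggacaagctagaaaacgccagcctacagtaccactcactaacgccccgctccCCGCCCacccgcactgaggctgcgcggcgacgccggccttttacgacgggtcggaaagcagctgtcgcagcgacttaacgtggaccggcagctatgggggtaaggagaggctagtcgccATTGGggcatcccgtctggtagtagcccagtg
Neither motif was in the single Lrp8os2 window, the 3 Lrp8 windows or the Magoh window. The Lrp8 windows do not cover all its annotated starts. Protein-coding Lrp8 transcripts that start at chr4:107802277 to 107802413 in the gene annotation begin before the first window, and the bases upstream of them were not searched. Vldlr has 2 windows, and the one not printed (chr19:27216234-27216533) held neither motif as well. The Reln window held 6 GC boxes, and 80.7% of its bases were G or C, against 55% for Lrp8os2 and a median of 52.7% over all 32851 windows. Of the 12 windows of the 7 genes, 5 held a GC box and 3 a CCAAT motif, against 35.7% and 37.4% of all windows. These matches describe letters in a window and were not tested.

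The 16 libraries held between 28743866 and 48761429 counts each, and library pairs of a group differed by more than sampling noise. Levels are given as CPM, which are counts scaled to the size of the library with TMM factors. Differences are log2 fold changes from edgeR's quasi-likelihood test, with their standard error (SE) or an approximate 95% interval. A gene was called at a Benjamini-Hochberg adjusted p under 0.05 over all genes tested. The SE was derived from the F statistic, and the intervals, also in the figures, use a normal approximation. With few libraries they are somewhat too narrow, and calls rest on the test alone. Trrap itself did not separate the genotypes. Its level was 136 to 173 CPM in control cortex and 121 to 146 in Trrap-FBΔ cortex (log2 fold change -0.18, SE 0.075, edgeR adjusted p = 0.083), and 140 to 151 against 135 to 148 in the striatum (-0.044, SE 0.048, adjusted p = 0.52). These counts cover the whole gene and all cells of the tissue, so they do not check the deletion, and the genotypes below are those of the labels. The control striatum libraries were not marked by striatal genes. Between the tissues in controls edgeR called 0 of 5 projection neuron markers (Ppp1r1b, Drd1, Drd2, Adora2a, Rgs9), 0 had an unadjusted p under 0.05 and DESeq2 called 0. Their summed level ran from 75.7 to 592 CPM in control striatum and from 117 to 365 in control cortex. In Trrap-FBΔ mice edgeR called 2 of the 5 higher in the striatum, and DESeq2 called 2, Drd2 and Rgs9. Their summed level was 171 to 295 CPM in Trrap-FBΔ striatum and 158 to 226 in Trrap-FBΔ cortex. Of 6 cortical excitatory markers, 5 were lower in control striatum. No marker was at 0 in any library. The genotypes also differed in sex, with 2 females among 4 controls in the cortex, 1 of 4 in the striatum, and 3 of 4 Trrap-FBΔ mice.

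Lrp8os2 was a rare transcript in control cortex and a readily counted one in Trrap-FBΔ striatum. Its level was 0.329, 0.804, 0.727 and 0.207 CPM in control cortex (mice 55, 58, 63 and 64) and 2.03, 3.49, 3.34 and 3.50 in Trrap-FBΔ cortex (mice 57, 59, 60 and 61). In the striatum it was 1.42, 1.29, 1.87 and 2.07 CPM in controls (mice 58, 63, 64 and 65) and 9.99, 9.34, 9.75 and 7.94 in Trrap-FBΔ mice. Within each tissue every Trrap-FBΔ library lay above every control library, and mouse 57 was the lowest of its cortical group. The fitted log2 fold change was 2.53 (SE 0.32) for cortex and 2.47 (SE 0.15) for striatum, that is 5.78-fold and 5.54-fold. The control cortex values rest on 9, 34, 28 and 8 counts, which limits the precision of the first. The difference between the 2 fold changes was -0.06, with a 95% interval from -0.75 to 0.63. The effect of the tissue did not choose the gene and was called in both genotypes. It was read from the same libraries as the rise, so these tests are not independent of the choice. Lrp8os2 was higher in the striatum by 1.65 on the log2 scale in controls (SE 0.35, edgeR adjusted p = 0.0034) and by 1.58 in Trrap-FBΔ mice (SE 0.15, adjusted p = 3.17e-06). In ascending order of level, control cortex came first, then control striatum, Trrap-FBΔ cortex and Trrap-FBΔ striatum. Only the middle pair overlapped, at 1.29 to 2.07 against 2.03 to 3.50 CPM.

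**Figure D1:**
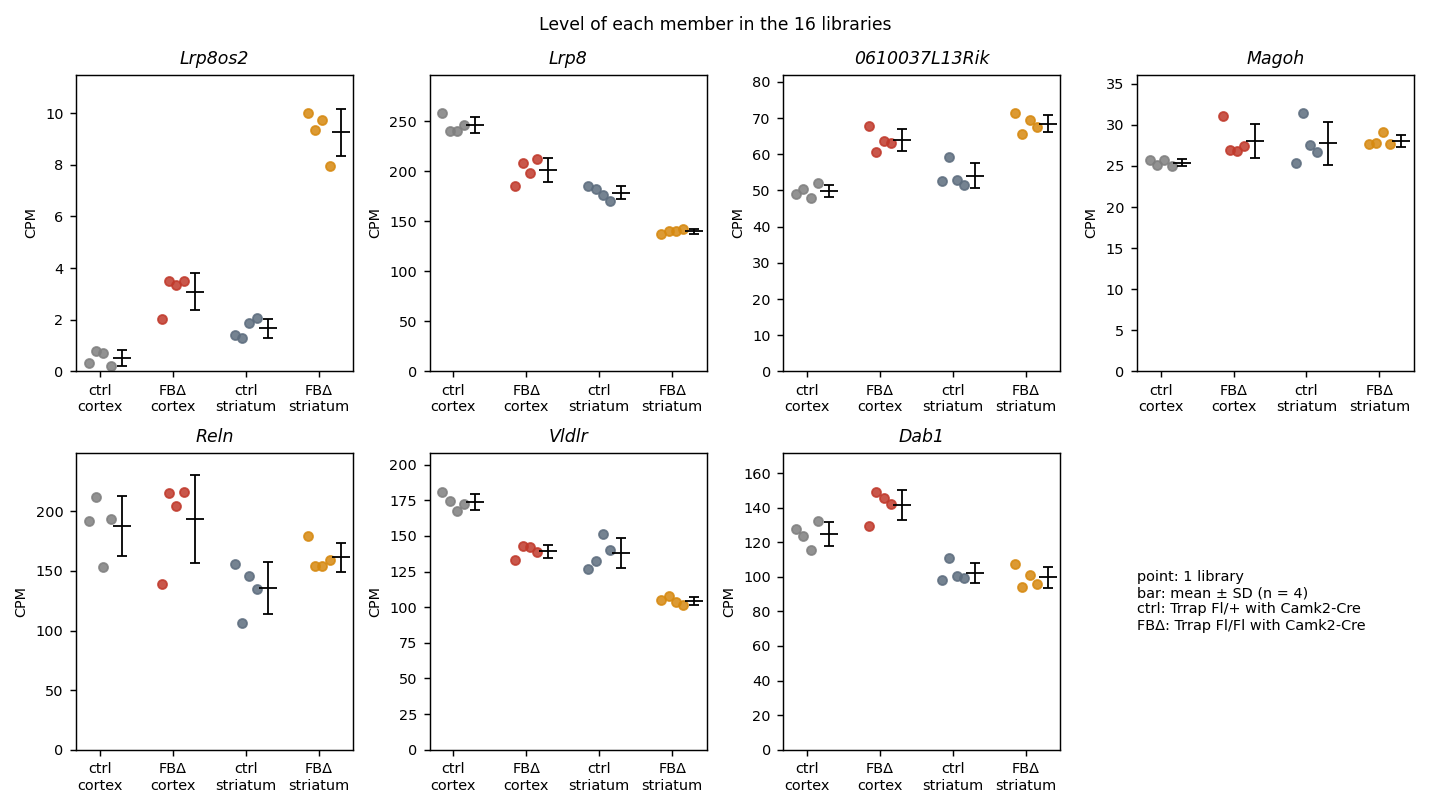
Level of the 7 genes, in CPM after TMM scaling, in each of the 16 libraries (points), with the mean ± SD of the 4 libraries of each group (bars) and axes that start at 0. Lrp8os2 runs from 0.207 to 9.99 CPM, Lrp8 and Vldlr are lower and 0610037L13Rik higher in every Trrap-FBΔ library of a tissue than in its controls, and Reln overlaps between genotypes in both tissues.

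Lrp8, the gene that holds Lrp8os2, moved the other way. Its level was 258, 241, 241 and 247 CPM in control cortex and 186, 208, 199 and 212 in Trrap-FBΔ cortex. In the striatum it was 185, 183, 177 and 170 CPM in controls and 137, 140, 141 and 143 in Trrap-FBΔ mice. In both tissues all Trrap-FBΔ libraries lay below all controls. Lrp8 fell by 0.29 on the log2 scale in the cortex (SE 0.052, edgeR adjusted p = 0.0014) and by 0.35 in the striatum (SE 0.043, adjusted p = 0.00042), that is 1.23-fold and 1.27-fold. The difference between the tissues in this effect was -0.057 (95% interval -0.18 to 0.069, adjusted p = 0.78). The call was made in all 17 alternative fits of each tissue, 8 of which left out 1 library. Of the 6 genes that the rule did not choose by their fold change, 2 rose, 2 fell and 2 were not called in the cortex, where 33.3% of 18268 genes were called, 15.7% as higher and 17.6% as lower. In the striatum 1 rose, 2 fell and 3 were not called, against 30.2% of 18872 genes called, 14.4% as higher and 15.8% as lower. Groups that did not overlap were found for 4 of these 6 genes between cortical groups and 3 between striatal ones, against 32.7% and 31.6% of all genes.

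Set against Lrp8 per length of exon, the antisense transcript was a small fraction in controls and a larger one in mutants. Lrp8os2 reached 0.691% ± 0.407 (SD, n = 4) of the Lrp8 level in control cortex and 4.98% ± 0.939 in Trrap-FBΔ cortex. It reached 3.06% ± 0.787 in control striatum and 21.6% ± 2.43 in Trrap-FBΔ striatum. The highest single library was that of mouse 57 in the striatum, at 23.8%, and the lowest that of mouse 64 in the cortex, at 0.274%. Since Lrp8os2 was chosen for its rise, these shares are a description. They also depend on the length used, and are smaller with that of the longest transcript. In Trrap-FBΔ striatum the mean levels were then 3.01 CPM per kb for Lrp8os2 and 21.2 for Lrp8. Per length of exon they were 2.87 and 13.3. Over the 16 libraries, which share groups and mice, the log2 levels of Lrp8os2 and Lrp8 had a Pearson r of -0.874. After the mean of each group was removed it was -0.123.

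0610037L13Rik, which encodes a small zinc-binding protein with a CXXC motif, rose in both tissues. Its level was 49.0, 50.4, 48.0 and 51.9 CPM in control cortex and 67.9, 60.6, 63.7 and 63.1 in Trrap-FBΔ cortex. In the striatum it was 52.7, 59.1, 52.8 and 51.6 CPM in controls and 71.3, 65.7, 69.5 and 67.5 in Trrap-FBΔ mice. The groups did not overlap in either tissue, with the control of mouse 63 the closest in the striatum. The cortical log2 fold change was 0.36 (SE 0.049, edgeR adjusted p = 0.00034) and the striatal one 0.34 (SE 0.054, adjusted p = 0.0015). The effect differed between tissues by -0.016 (95% interval -0.15 to 0.12, adjusted p = 0.96).

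Magoh, a core subunit of the exon junction complex that marks spliced RNA, lies between Lrp8 and 0610037L13Rik and was not called in either tissue. Its level was 25.7, 25.1, 25.8 and 24.9 CPM in control cortex and 31.1, 26.9, 26.8 and 27.4 in Trrap-FBΔ cortex. These groups did not overlap, but the cortical log2 fold change of 0.14 (SE 0.061) missed the threshold with an edgeR adjusted p of 0.093. In the striatum the level was 25.3, 31.4, 27.5 and 26.7 CPM in controls and 27.7, 27.8, 29.2 and 27.7 in Trrap-FBΔ mice. The striatal difference was 0.017, with a 95% interval from -0.12 to 0.15 and an adjusted p of 0.87.

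Within 500000 bases of either end of Lrp8os2 the annotation lists 32 genes, 4 of them members. Of the other 28, enough counts for a test were found for 12 in the cortex and 11 in the striatum. In the cortex 2 of these 12 were called higher and 2 lower, against 15.7% and 17.6% of all genes. In the striatum 5 of 11 were called higher and 1 lower, against 14.4% and 15.8%. The cortical median log2 fold change of those tested was 0.0039 and the striatal one 0.19, against 0.001 and -0.0055 over all genes tested. Yipf1 was called higher and Zyg11b lower in both tissues, and Dmrtb1 was called in opposite directions. Yipf1, a Golgi membrane protein 446210 bases away, changed by 0.30 (SE 0.054, edgeR adjusted p = 0.0017) in the cortex and 0.20 (SE 0.061, adjusted p = 0.029) in the striatum. Zyg11b, a substrate receptor of a ubiquitin ligase 406702 bases away on the other side, fell by 0.23 (SE 0.052, adjusted p = 0.006) and by 0.30 (SE 0.048, adjusted p = 0.0018). The striatal call of Yipf1 was lost with sex in the fit (adjusted p = 0.0982) and without the mutant of mouse 57, 60 or 61 or the control of mouse 64 or 65, at 0.18 to 0.20 (adjusted p = 0.0732 to 0.0783). Dmrtb1, a DM-domain transcription factor 121803 bases away on the side of Yipf1, fell by 0.34 in the cortex (SE 0.11, adjusted p = 0.037) and rose by 0.30 in the striatum (SE 0.078, adjusted p = 0.016). Its cortical call was lost without the mutant of mouse 57, 59 or 60 or the control of mouse 55 or 63, at -0.34 to -0.23 (adjusted p = 0.0651 to 0.0999), and its striatal call with sex in the fit (adjusted p = 0.0531). Cpt2, a mitochondrial enzyme of fatty acid oxidation 80959 bases away on the side of Zyg11b, rose by 0.56 in the striatum (SE 0.08, adjusted p = 0.00094) and was not called in the cortex, at -0.0053 (SE 0.086, adjusted p = 0.97). The plot of fold change by distance shows these genes among others that were not called in either tissue.

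Lrp8os3, a further minus-strand transcript that starts just upstream of Lrp8 at chr4:107793161-107802064, was low throughout. Its level was 0.646 to 0.994 CPM in control cortex and 0.888 to 1.26 in Trrap-FBΔ cortex, where the groups overlapped. The cortical log2 fold change was 0.43 (SE 0.18, edgeR adjusted p = 0.094). In the striatum the level was 1.26 to 1.55 CPM in controls and 1.98 to 2.63 in Trrap-FBΔ mice, without overlap, and Lrp8os3 rose by 0.64 on the log2 scale (SE 0.14, adjusted p = 0.0063). The difference between tissues in its effect was 0.21 (SE 0.22, adjusted p = 0.77). Lrp8os1, on the same strand inside Lrp8, had at most 1 count in any of the 16 libraries and was not tested.

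**Figure D2:**
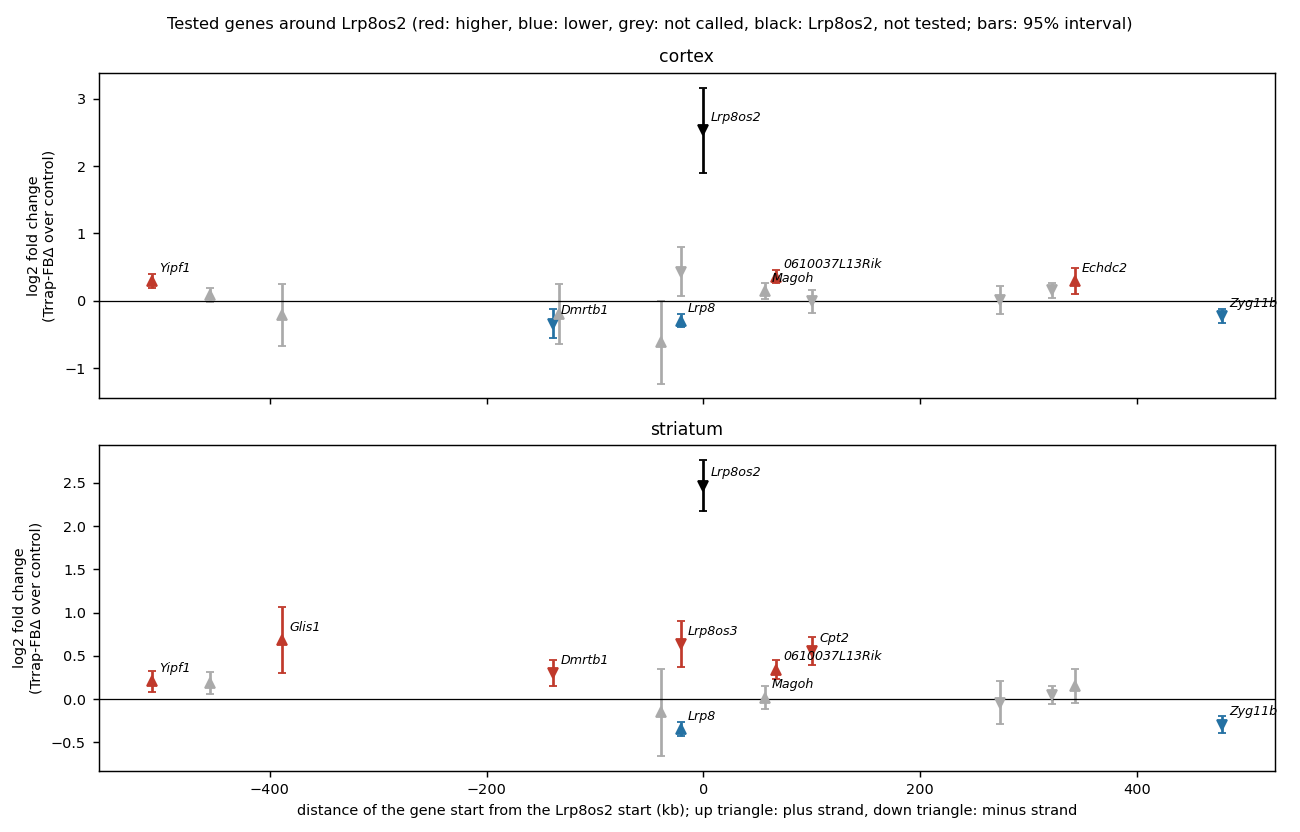
Log2 fold change (Trrap-FBΔ over control; bars, 95% interval) of the tested genes around Lrp8os2 in the cortex (above) and the striatum (below), by the distance in kb of the gene start from the Lrp8os2 start; triangles point up for the plus and down for the minus strand. Lrp8os2 stands at 2.53 and 2.47, its host Lrp8 below 0 in both tissues, Yipf1 and 0610037L13Rik above 0 and Zyg11b below 0 in both, and Dmrtb1 below 0 in the cortex and above 0 in the striatum.

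Vldlr, the other reelin receptor, fell with Lrp8. Its level was 181, 175, 168 and 172 CPM in control cortex and 133, 143, 142 and 139 in Trrap-FBΔ cortex. In the striatum it was 127, 133, 152 and 140 CPM in controls and 105, 108, 104 and 101 in Trrap-FBΔ mice. No Trrap-FBΔ library reached the lowest control of its tissue. Vldlr fell by 0.32 on the log2 scale in the cortex (SE 0.044, edgeR adjusted p = 0.00031) and by 0.40 in the striatum (SE 0.056, adjusted p = 0.00081), that is 1.25-fold and 1.32-fold. The difference between tissues in this effect was -0.082 (95% interval -0.22 to 0.054, adjusted p = 0.70). The call stood in all 17 alternative fits of each tissue. The number of Lrp8 reads per Vldlr read was 1.42 ± 0.0257 in control cortex and 1.45 ± 0.0643 in Trrap-FBΔ cortex, and 1.30 ± 0.136 and 1.34 ± 0.0487 in the striatum (SD, n = 4). The ratio of the receptors overlapped between genotypes in both tissues, while both levels fell.

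Reln, the ligand, was not called between genotypes in either tissue. Its level was 192, 212, 153 and 193 CPM in control cortex and 139, 215, 205 and 217 in Trrap-FBΔ cortex. Mouse 57 held the lowest value of all 8 cortical libraries, and the other 3 mutants lay above the 3 lower controls. The cortical log2 fold change was 0.045 (95% interval -0.22 to 0.31, edgeR adjusted p = 0.82). In the striatum the level was 156, 106, 146 and 135 CPM in controls and 179, 154, 154 and 159 in Trrap-FBΔ mice. The highest control overlapped the lowest 2 mutants. The striatal change was 0.25 (95% interval 0.045 to 0.46, adjusted p = 0.095), and without the control of mouse 58 it was 0.32 with an adjusted p of 0.043. The difference between tissues was 0.20 (SE 0.19, adjusted p = 0.73).

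Dab1, the adaptor, rose in the cortex by a small amount. Its level was 128, 124, 116 and 133 CPM in control cortex and 129, 149, 146 and 142 in Trrap-FBΔ cortex, with mouse 57 again the lowest mutant and inside the range of the controls. The log2 fold change was 0.18 (SE 0.057, edgeR adjusted p = 0.029). The call was lost when the control of mouse 58 or 63 or the mutant of mouse 59 or 60 was left out, at 0.17, 0.15, 0.16 and 0.17 (adjusted p = 0.068, 0.081, 0.067 and 0.075). In the striatum the level was 98.1, 111, 101 and 99.5 CPM in controls and 108, 94.1, 101 and 96.1 in Trrap-FBΔ mice. These overlapped, with a difference of -0.036 (95% interval -0.15 to 0.076, adjusted p = 0.67). The difference between tissues, -0.22 (SE 0.083), had an unadjusted p of 0.017 and an adjusted p of 0.28, and so was not called. None of the 6 members other than Lrp8os2 was called in that comparison, in which 0.437% of 19438 genes were.

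**Figure D3:**
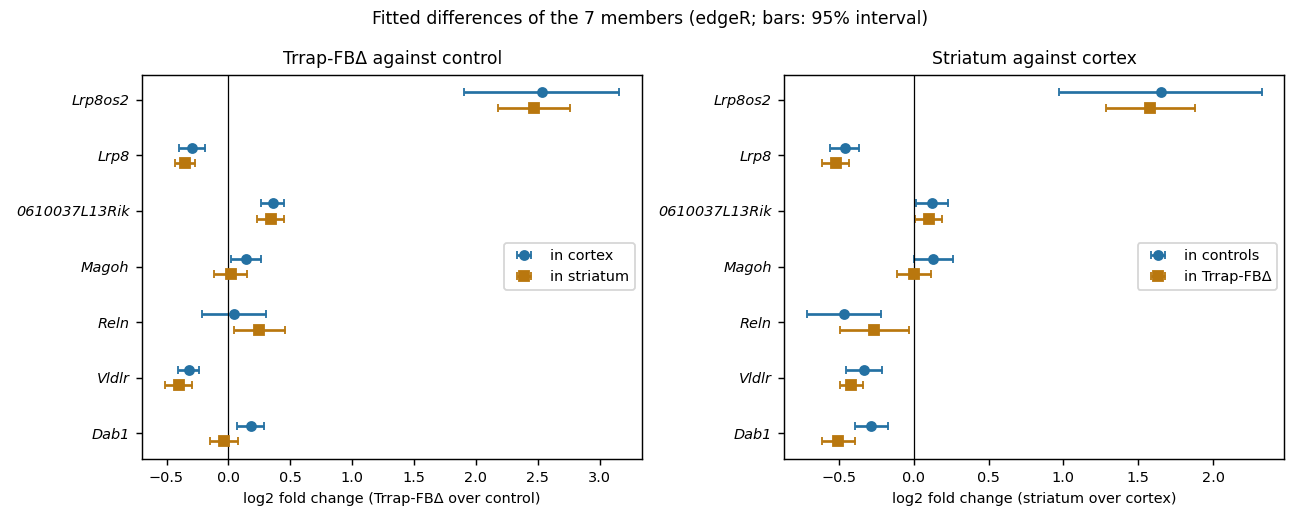
Log2 fold changes of the 7 genes from edgeR with 95% intervals, between genotypes in each tissue (left) and between tissues in each genotype (right). On the left Lrp8 and Vldlr lie below 0 and 0610037L13Rik above 0 in both tissues, and on the right Lrp8, Vldlr and Dab1 lie below 0 and Lrp8os2 above 0 in both genotypes.

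Around these core genes, 55 genes of reelin signalling were followed by role, and all 55 were tested. In the cortex 5 were called higher and 19 lower, that is 9.09% and 34.5% of the list, against 15.7% and 17.6% of all genes. In the striatum 5 were higher and 14 lower, or 9.09% and 25.5%, against 14.4% and 15.8%. The cortical median log2 fold change of the list was -0.03 and the striatal one -0.057, against 0.001 and -0.0055 over all genes tested. Members called lower in both tissues numbered 10 and those called higher in both numbered 2, and no member was called in opposite directions. The shares of all genes called in both tissues were not computed, so these counts have no background beside them. With sex in the striatal fit the counts there were 1 higher and 9 lower, and with 1 striatal library left out the higher count was 2 to 4. Lrpap1 was the 1 member called higher in every one of these striatal fits. In the comparison of the effect between tissues 0 of 55 were called by edgeR, 8 had an unadjusted p under 0.05, and DESeq2 called 2, Grin2a and Grin2b.

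Of the 6 receptors and coreceptors, 3 were lower in both tissues, Lrp8, Vldlr and the integrin chain Itgb1, and 1 was higher in the striatum, the integrin chain Itga3. In each tissue 50% of these 6 were thus lower, against 17.6% of all genes in the cortex and 15.8% in the striatum. The share of all genes lower in both was not computed. Itgb1 fell by 0.27 in the cortex (SE 0.053, edgeR adjusted p = 0.0026) and by 0.24 in the striatum (SE 0.056, adjusted p = 0.0094), where sex in the fit gave an adjusted p of 0.0522. Itga3 rose by 0.32 in the striatum (SE 0.11, adjusted p = 0.046). That call was lost with sex in the fit (adjusted p = 0.0815) and without the mutant of mouse 57, 59 or 61 or the control of mouse 63 or 64, at 0.24 to 0.31 (adjusted p = 0.0829 to 0.108). In the cortex Itga3 was not called, at 0.12 (SE 0.079, adjusted p = 0.26). Of the proteases that cut reelin and Reln itself, 3 of 6 were lower in the cortex, against 17.6% of all genes, namely Adamts2, Adamts5 and Plat. Plat missed the threshold in the edgeR fit of all 16 libraries (adjusted p = 0.0557) and in limma-voom with the mouse as a random replicate block (adjusted p = 0.0541). In the striatum edgeR called 0 of these 6, 2 had an unadjusted p under 0.05, Reln and Adamts5, and DESeq2 called 0.

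Of the 6 genes of the adaptor and its kinases, 1 was higher and 2 lower in the cortex and 2 were lower in the striatum. In the cortex that is 16.7% higher and 33.3% lower, against 15.7% and 17.6% of all genes, and in the striatum 33.3% lower, against 15.8%. Cdk5r1, the activator of the kinase Cdk5, fell by 0.14 (SE 0.047, edgeR adjusted p = 0.034) and by 0.35 (SE 0.087, adjusted p = 0.013) in the cortex and the striatum. The cortical call was lost in 11 of 17 alternative fits, 6 of which left out 1 library (mutant 57, 59 or 60 or control 58, 63 or 64; -0.15 to -0.12, adjusted p = 0.057 to 0.0933). Of 24 effectors, 10 were lower and 1 higher in the cortex, or 41.7% and 4.17%, against 17.6% and 15.7% of all genes. In the striatum 9 of them, 37.5%, were lower, against 15.8%. Dcx, a microtubule-binding protein of migrating neurons, fell by 0.50 (SE 0.12, adjusted p = 0.0063) and by 0.77 (SE 0.11, adjusted p = 0.00076). Mapt, which encodes tau, fell by 0.63 (SE 0.094, adjusted p = 0.00057) and by 0.46 (SE 0.069, adjusted p = 0.0012). The small GTPases Rap1b and Cdc42, the PI3-kinase subunit Pik3r1 and the kinase Gsk3b fell by 0.21 to 0.33 in both tissues. The cortical call of Rap1b was lost without the mutant of mouse 59, 60 or 61 or the control of mouse 55 or 63, at -0.22 to -0.17 (adjusted p = 0.0666 to 0.0933), and the striatal calls of Pik3r1 and Gsk3b with sex in the fit (adjusted p = 0.0518 and 0.0702). Dcx is also 1 of 5 markers of immature neurons, 4 of which were lower in the cortex and 3 in the striatum. The striatal 3 were Dcx, Tubb3 and Gap43. Sox4, at a mean of 83.6 CPM in control and 84.7 in Trrap-FBΔ striatum, and Sox11, at 64.9 and 61.5 CPM, were not called there. Tubb3 and Gap43 had the highest levels of the 5, with means of 709 and 747 CPM in control cortex and 291 and 384 CPM in Trrap-FBΔ cortex. The summed level of the 5 immature neuron markers was 1840 to 2250 CPM in control and 984 to 1220 in Trrap-FBΔ cortex, and 1440 to 1610 against 887 to 1000 CPM in the striatum. Microglial markers were lower as well, 5 of 5 for cortex (252 to 283 against 179 to 227 CPM summed) and 4 of 5 for striatum (201 to 243 against 160 to 175 CPM). All these marker counts stand against 17.6% of all genes called lower in the cortex and 15.8% in the striatum. Called higher were 15.7% and 14.4%. Of 5 oligodendrocyte markers edgeR called 5 lower in the cortex, of which DESeq2 called 2, and 0 in the striatum, where 0 had an unadjusted p under 0.05 and DESeq2 called 0. The difference between the tissues was called for 0 of these 5 by either tool, and 0 had an unadjusted p under 0.05. Among 4 endothelial markers, 4 were lower in cortical and 1 in striatal libraries. The astrocyte, Cajal-Retzius and interneuron lists had calls in both directions in at least 1 tissue or few calls. Of 5 astrocyte markers, 2 were higher and 2 lower in the cortex, and 2 were higher and 0 lower in the striatum. Of 6 Cajal-Retzius markers, 3 were higher and 2 lower in the striatum. Among 8 interneuron markers 1 was higher and 0 lower in the cortex, and 1 was higher and 1 lower in the striatum. For the 4 choroid plexus markers edgeR called 0 in either tissue, and DESeq2 called 1 in the striatum, Aqp1. Of 6 cortical excitatory markers, 1 was lower and 0 higher in the cortex. In the striatum 3 were lower and 0 higher, all 6 lay below 0 and their median log2 fold change was -0.715. Their summed level was 341 to 597 CPM in control striatum and 234 to 376 in Trrap-FBΔ striatum. The part of these cell type markers in the fall of the receptors and effectors was not tested.

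Among the 4 genes of Dab1 turnover, 2 were called higher in each tissue, and among the 4 of receptor turnover and trafficking 1, against 15.7% and 14.4% of all genes called higher in the cortex and the striatum. Cul5, the scaffold of the ubiquitin ligase that removes active Dab1, rose by 0.29 on the log2 scale in the cortex (SE 0.05, edgeR adjusted p = 0.0013) and by 0.17 in the striatum (SE 0.052, adjusted p = 0.028). The striatal call of Cul5 was lost with sex in the fit (adjusted p = 0.0616) and without the mutant of mouse 59 or 60 or the control of mouse 58 or 64, at 0.15 to 0.17 (adjusted p = 0.0595 to 0.0873). Socs7 was the other gene of Dab1 turnover called in the cortex and Arih2 that in the striatum. The call of Arih2 was lost in 8 of 17 alternative fits, with sex in the fit, with no filter on low counts, and without the mutant of mouse 57, 60 or 61 or the control of mouse 58, 64 or 65, at 0.14 to 0.16 (adjusted p = 0.0543 to 0.0782). Lrpap1, a chaperone that holds receptors of the Lrp8 family free of ligand in the endoplasmic reticulum, rose by 0.40 (SE 0.043, adjusted p = 8.77e-05) and by 0.30 (SE 0.052, adjusted p = 0.0023).

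**Figure D4:**
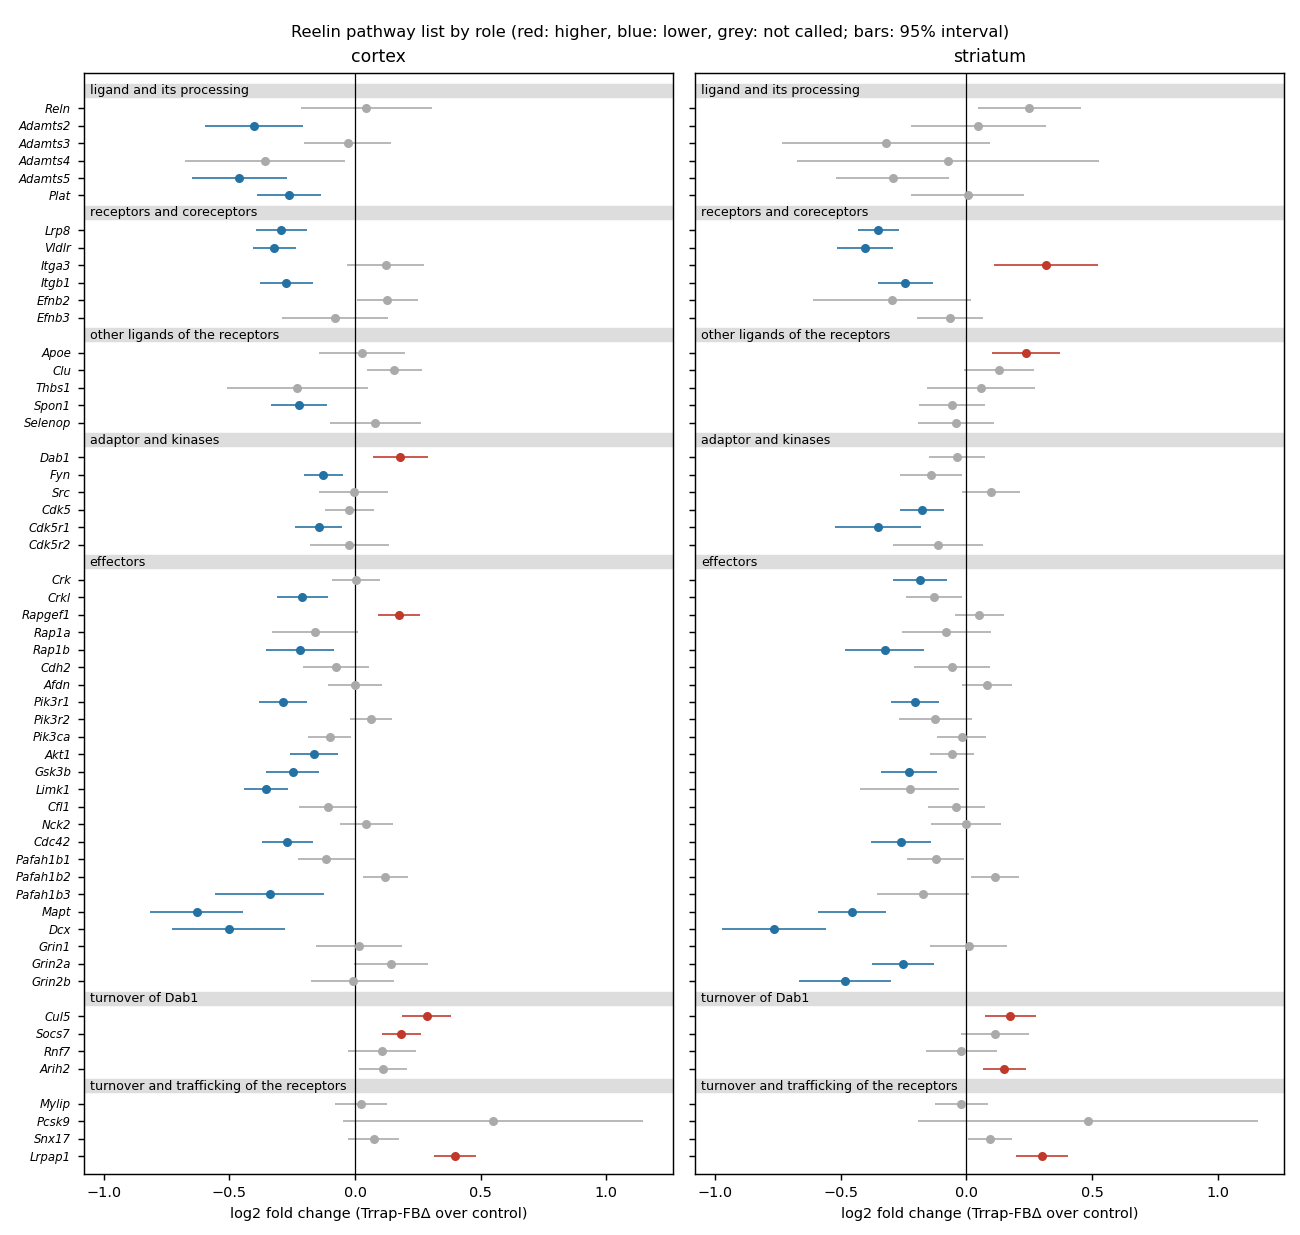
Log2 fold change (Trrap-FBΔ over control; bars, 95% interval) of the 55 reelin pathway genes in the cortex (left) and the striatum (right), grouped by role. Blue points (called lower) number 19 and 14, red points (called higher) 5 and 5, and Lrp8, Vldlr, Itgb1, Dcx and Mapt are blue and Cul5 and Lrpap1 red on both sides.

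Between the tissues, the receptors and the adaptor were lower in the striatum in both genotypes. Of the 6 members other than Lrp8os2, 4 were lower and 2 not called in controls, and 3 lower and 3 not called in Trrap-FBΔ mice, against 40.4% of 18284 and 54.7% of 18872 genes called. Lrp8 was lower in the striatum by a log2 difference of -0.46 in controls (SE 0.05, edgeR adjusted p = 6.15e-05) and -0.52 in Trrap-FBΔ mice (SE 0.046, adjusted p = 1.68e-06). Vldlr differed by -0.33 (SE 0.06, adjusted p = 0.0015) and -0.42 (SE 0.04, adjusted p = 3.3e-06). Dab1 differed by -0.29 (SE 0.056, adjusted p = 0.0024) and -0.51 (SE 0.056, adjusted p = 1.14e-05). All 3 were lower in the striatum in each of the 7 mice that gave both tissues, at 0.673 to 0.768 of the cortical level for Lrp8, 0.727 to 0.879 for Vldlr and 0.630 to 0.958 for Dab1. The cortical excitatory markers, which were lower with them, summed to 1390 to 1800 CPM in control cortex and 341 to 597 in control striatum, and their part in the tissue difference was not tested.

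Reln was lower in control striatum by -0.46 on the log2 scale (SE 0.13, edgeR adjusted p = 0.014), though 1 striatal value lay inside the cortical range. In Trrap-FBΔ mice the difference was -0.26 (SE 0.12, adjusted p = 0.077). Mouse 57 was the single animal with more Reln in the striatum than in the cortex, at 1.29 times, while the other 6 lay between 0.695 and 0.755 times. Without its cortical library the difference in Trrap-FBΔ mice was -0.40, with an adjusted p of 0.00017. Of 6 Cajal-Retzius markers, 4 were higher in control striatum (Lhx5, Lhx1, Ebf3 and Calb2) and 2 were not called (Trp73 and Ndnf). Among all genes, 20.3% were higher there and 20.1% lower. The summed level of the 6 markers was 247 to 359 CPM in control striatum against 59.1 to 119 CPM in control cortex. Calb2 alone had a mean of 223 CPM in control striatum and 45.8 CPM in control cortex. Of 8 interneuron markers, 3 were higher in control striatum (Gad1, Gad2 and Slc32a1) and 3 lower (Npy, Lamp5 and Vip), with a median log2 difference of -0.24, while their summed level was 932 to 1180 CPM there and 670 to 914 CPM in control cortex. Whether either bears on Reln was not tested.

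0610037L13Rik and Magoh were not called between tissues in either genotype. For 0610037L13Rik the difference was 0.12 (SE 0.054, edgeR adjusted p = 0.10) in controls and 0.10 (SE 0.046, adjusted p = 0.084) in Trrap-FBΔ mice. Its level was higher in the striatum in 7 of 7 mice, by 1.02 to 1.23 times, and with the mouse as a fixed replicate block the difference in Trrap-FBΔ mice was 0.10 with an adjusted p of 0.043. Without the cortical library of mouse 57 it was 0.13, with an adjusted p of 0.023. For Magoh it was 0.13 (95% interval -0.0013 to 0.26, adjusted p = 0.15) and 0.0014 (95% interval -0.11 to 0.12, adjusted p = 0.99). Lrp8os2 was higher in the striatum in 7 of 7 mice, by 1.76 to 9.03 times, the highest being mouse 64 with 8 cortical counts.

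**Figure D5:**
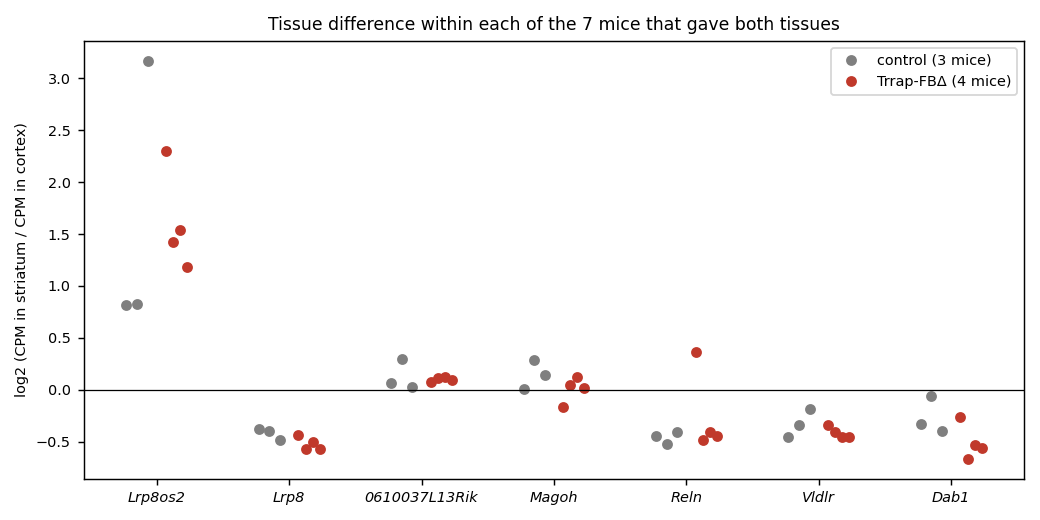
Log2 ratio of the level in the striatum to that in the cortex for the 7 genes in the 3 control and 4 Trrap-FBΔ mice that gave both tissues (1 point per mouse). Lrp8, Vldlr and Dab1 lie below 0 in every mouse, Lrp8os2 and 0610037L13Rik above 0, and mouse 57 is the 1 point of Reln above 0.

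Of the 55 reelin genes, 16 were called higher and 23 lower in the striatum of controls, where 20.3% of all genes were higher and 20.1% lower. In Trrap-FBΔ mice 18 were higher and 27 lower, against 27.4% in each direction. The 5 other ligands of the receptors, among them Apoe and Clu, gave 4 higher in controls and 5 higher in Trrap-FBΔ mice. The count of higher genes in controls was 10 without the striatal library of mouse 58 or of mouse 65. With upper-quartile scaling it was 18 higher and 21 lower in controls, and 19 higher and 22 lower in Trrap-FBΔ mice.

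Per kilobase of exon, the members ranked in control cortex as Magoh at 33.0 ± 0.535 CPM per kb (SD, n = 4), Lrp8 at 23.5 ± 0.778, Vldlr at 17.3 ± 0.559, Dab1 at 15.8 ± 0.900, 0610037L13Rik at 8.85 ± 0.301, Reln at 7.91 ± 1.05 and Lrp8os2 at 0.161 ± 0.0911. Vldlr and Dab1, and 0610037L13Rik and Reln, overlapped between libraries as neighbours in this order. With the length of the longest transcript, Lrp8 (37.2) came before Magoh (36.7) and Dab1 (23.7) before Vldlr (21.8), so the order of these pairs depends on the length used.

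By the Pearson correlation of log2 CPM over the 16 libraries, among 14991 genes with a mean of at least 50 counts, the genes most like Lrp8os2 were Bbs2 (r = 0.985), Rad9b, Cetn4, Itfg2 and Zfp446. Those most like Lrp8 were Klf7 (r = 0.991), Gnb1, Lsm11, St7 and Slc29a4. Those most like Reln were Afdn (r = 0.951), which is also on the reelin list, Prrc2b, Aff3, Zfp609 and Tmem131. The libraries share mice, groups and depth, and these values are a description. Once the mean of each group was removed, the strongest of the 21 pairs of members were Magoh and Reln (r = -0.84) and 0610037L13Rik and Magoh (r = 0.704).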

How the data were processed

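RNA was sequenced from the cortex and striatum of 9 mice in 16 single-end, strand-specific libraries. The authors aligned reads with STAR 2.5.4b to GRCm38 after bcl2fastq 1.8.4, and the deposited values are raw counts of uniquely mapped reads per Ensembl gene from featureCounts 1.5.0, with no normalization (tools and versions from the submitters' processing notes). Totals ran from 28743866 to 48761429 counts. Symbols and coordinates came from the GENCODE annotation of that build, which matched 53706 of 53801 identifiers, and groups and mouse numbers from the labels.

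Differences were fitted to the counts by edgeR 4.0.16 (R 4.3.3; glmQLFit and its quasi-likelihood F test) after filterByExpr and TMM normalization, in the 8 libraries of each comparison and in all 16 for the interaction. The threshold was 0.05 on the Benjamini-Hochberg adjusted p over all genes tested. CPM used the same factors, and log2 CPM a prior count of 2. Alternatives were RLE and upper-quartile factors, other count filters, DESeq2 1.42.0 (which the authors used per tissue), limma-voom (limma 3.58.1), sex as a covariate, all 16 libraries, the mouse as a block, each library left out, and the longest transcript for levels per length. The edgeR step was tested on simulated data. Nothing in the labels beyond mouse numbers describes the animals' litters, so p-values of the genotype comparisons within a tissue measure the spread between these mice. The main fits between tissues and of the interaction held no term for the mouse. They treated both libraries of a mouse as independent, and the pairing entered only in the alternatives with the mouse as a block.

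Libraries of the same mouse are paired across tissues by the labels. Deviations of these 7 pairs from the group means correlated at 0.0833 to 0.347, against -0.302 to 0.215 for different mice.

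The members, lists and tests were chosen with earlier results of these data known. The genes named are the 7 members, genes of the reelin and locus lists called the same way in both tissues, those called in the comparison between tissues, and the 5 genes most like Lrp8os2, Lrp8 and Reln. Others, named within small counts, were chosen after their values were seen. A gene of the marker lists is not reported here and was left out of its list. Promoter sequences are from RefSeq (GRCm38.p6), matched by symbol for all 7 members.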

Additional observations from a re-analysis of the deposited data

Results flagged for a closer look

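Each group of 4 libraries was searched for a library far from the other 3, in 28 groups of member and condition, where chance marks about 1 in 20. In Trrap-FBΔ cortex, mouse 57 stood apart in 3 members. Its Lrp8os2 level was 2.03 CPM and its Reln level 138.8 CPM, both below the others, and its Magoh level was 31.06 CPM, above them. In control striatum, mouse 63 stood apart for 0610037L13Rik, at 59.12 CPM, above the others. In Trrap-FBΔ striatum, mouse 60 stood apart for Magoh, at 29.16 CPM, also above.

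The effect of the genotype differed between the tissues for a pair of genes near Lrp8os2. Dmrtb1, a DM-domain transcription factor, changed by 0.64 more on the log2 scale in the striatum than in the cortex (SE 0.14, edgeR adjusted p = 0.048). Its level was 6.10 to 8.56 CPM in control and 5.25 to 6.11 in Trrap-FBΔ cortex, and 5.14 to 5.95 against 6.80 to 7.30 CPM in the striatum, so the cortical groups overlap narrowly and the striatal ones do not. Cpt2, a mitochondrial enzyme of fatty acid oxidation, changed by 0.56 more in the striatum (SE 0.11, adjusted p = 0.032), from 5.62 to 6.82 CPM in controls to 8.74 to 9.71 in Trrap-FBΔ mice, while the cortical groups overlapped at 5.19 to 5.61 and 5.09 to 6.03 CPM. Both calls were near the threshold. The adjusted p of Dmrtb1 was 0.06 with sex in the fit and 0.0368 to 0.113 with 1 library left out, and that of Cpt2 was 0.0257 to 0.0918 with 1 library left out.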

How the results depend on the processing

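Of 33 tested member comparisons, 21 kept their direction and their side of the threshold under every alternative, and of 608 values under alternatives 572 did. The 33 include the comparisons of Lrp8os2 between tissues and of its effect between tissues, which are not independent of its choice. The falls of Lrp8 and Vldlr and the rise of 0610037L13Rik were called under all alternatives in both tissues. The rise of Lrp8os2 ranged from 2.25 to 2.84 in the cortex and from 2.36 to 2.60 in the striatum. It had no value in the cortex with at least 10 counts required in every library, since 2 control libraries held fewer. Depth limits Lrp8os2 in control cortex most. No scaling moved the median of all genes by more than 0.1. The cause of the changes below was not tested.

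With 1 library left out, the rise of Dab1 in the cortex was 0.15 to 0.23 and lost its call in 4 of 8 fits, the change of Reln was -0.042 to 0.18 in the cortex and 0.15 to 0.32 in the striatum, that of Magoh in the striatum -0.025 to 0.083, and that of Dab1 there -0.075 to 0.0046. Differences between tissues in the effect were -0.37 to 0.22 for Lrp8os2 and -0.037 to 0.039 for 0610037L13Rik. Differences of striatum from cortex in Trrap-FBΔ mice were -0.023 to 0.051 for Magoh, -0.40 to -0.21 for Reln and 0.075 to 0.13 for 0610037L13Rik. The reelin genes called higher in the striatum numbered 2 to 4, against 5. With sex as a covariate they numbered 1, those called lower there 9, the Magoh difference was -0.021 in the striatum, and Magoh was called between tissues in controls at 0.16 (adjusted p = 0.0499). Upper-quartile factors gave 0610037L13Rik 0.0096 in the difference between tissues in the effect, and called it between tissues at 0.17 in controls and 0.17 in Trrap-FBΔ mice. Reln was called between tissues in Trrap-FBΔ mice with no filter on low counts (-0.26) and with DESeq2 (-0.27). With the mouse as a fixed replicate block, 0610037L13Rik was called between tissues in Trrap-FBΔ mice at 0.10 (adjusted p = 0.043), and the replicate block, fixed or random, changed no other member's call. The effect differed between tissues for 85 genes by edgeR, 195 with no filter, 303 with the random block and 430 by DESeq2.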
